A study of Rattus norvegicus with 18 samples.

Results

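Growth-cone genes and the gene of HuD, an RNA-binding protein, were followed in rat hippocampus. The 7 genes were Gap43, Basp1, Marcks, Nrgn, Stmn1, Stmn2 and Elavl4. They were chosen by name, with earlier results of these data known. Every probe set whose platform symbol was one of these names was taken, whatever its values. These 7 genes, of 10412 with a single symbol on the array, had 15 probe sets. The platform gave 2 to Gap43, 1 to Elavl4, 2 to Basp1, 6 to Marcks, 1 to Stmn1, 2 to Stmn2 and 1 to Nrgn.

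Total RNA of hippocampus was measured on 18 Affymetrix oligonucleotide arrays in a study of learning disability after fetal alcohol exposure. Each array belonged to an alcohol, isocaloric or control diet, and to animals that were either naive or trained in a procedure abbreviated CFC, which the labels do not spell out. The alcohol diet had 4 trained and 4 naive arrays, the isocaloric diet 4 trained and 2 naive, and the control diet 2 of each. The labels name no genotype, transgene or further drug. Strain, age, litter, the way alcohol was given and the time from training to tissue collection are not given in the sources used here. The labels do not say that replicates were separate animals, so p-values cover spread that may be technical, and they take no account of shared litters.

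GAP-43, BASP1 and MARCKS are membrane-bound proteins of the growth cone, the motile tip of a growing axon, and each is a substrate of protein kinase C. They bind acidic lipids at the inner face of the membrane and influence the actin cytoskeleton beneath it, and GAP-43 and MARCKS also bind calmodulin. Neurogranin, encoded by Nrgn, is a postsynaptic protein that shares with GAP-43 a calmodulin-binding IQ motif holding the protein kinase C site. Stathmin (Stmn1) and its neuronal relative SCG10 (Stmn2) bind tubulin dimers and promote microtubule disassembly. HuD, encoded by Elavl4, is a neuronal RNA-binding protein that binds AU-rich elements in messages such as that of Gap43 and stabilises them. In the adult hippocampus these proteins are known for their links to synaptic plasticity and memory.

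The hippocampal neuron markers Neurod2, Prox1, Wfs1, Camk2a and Hpca passed the filter on low values, each by its probe set of highest mean, as did 4 striatum and 2 thalamus markers. Total intensity ran from 2.92e+06 to 3.13e+06 per array, and the correlation between arrays of a group was 0.952 to 0.985. Ttr, a marker of choroid plexus, lay between 5927 and 7331 on 4 arrays and between 62.5 and 755 on the other 14. Those 4 were replicate 4 of alcohol trained, replicate 2 of alcohol naive, replicate 3 of isocaloric trained and replicate 1 of control trained. Control naive replicate 1 and control trained replicate 2 carried a processing note of their own. In a bulk sample, fewer cells of a type and less RNA per cell cannot be told apart.

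Of the 7 genes, 2 passed a test between diets, and the arrays of most groups overlapped for the rest. Nrgn was higher under the alcohol diet than under the control diet, 1 of 12 member probe sets beside 19.9% of all probe sets called. In the comparison with the isocaloric diet, 1 of the 5 measurable Marcks probe sets was lower under alcohol. That was 1 of 12 member probe sets, beside 3.06% of all probe sets. None of the 12 probe sets tested passed the threshold for training. Between trained and naive arrays, 0% to 0.0315% of all probe sets were called. Gap43, Elavl4, Basp1, Stmn1 and Stmn2 passed the threshold in no comparison.

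**Figure D1:**
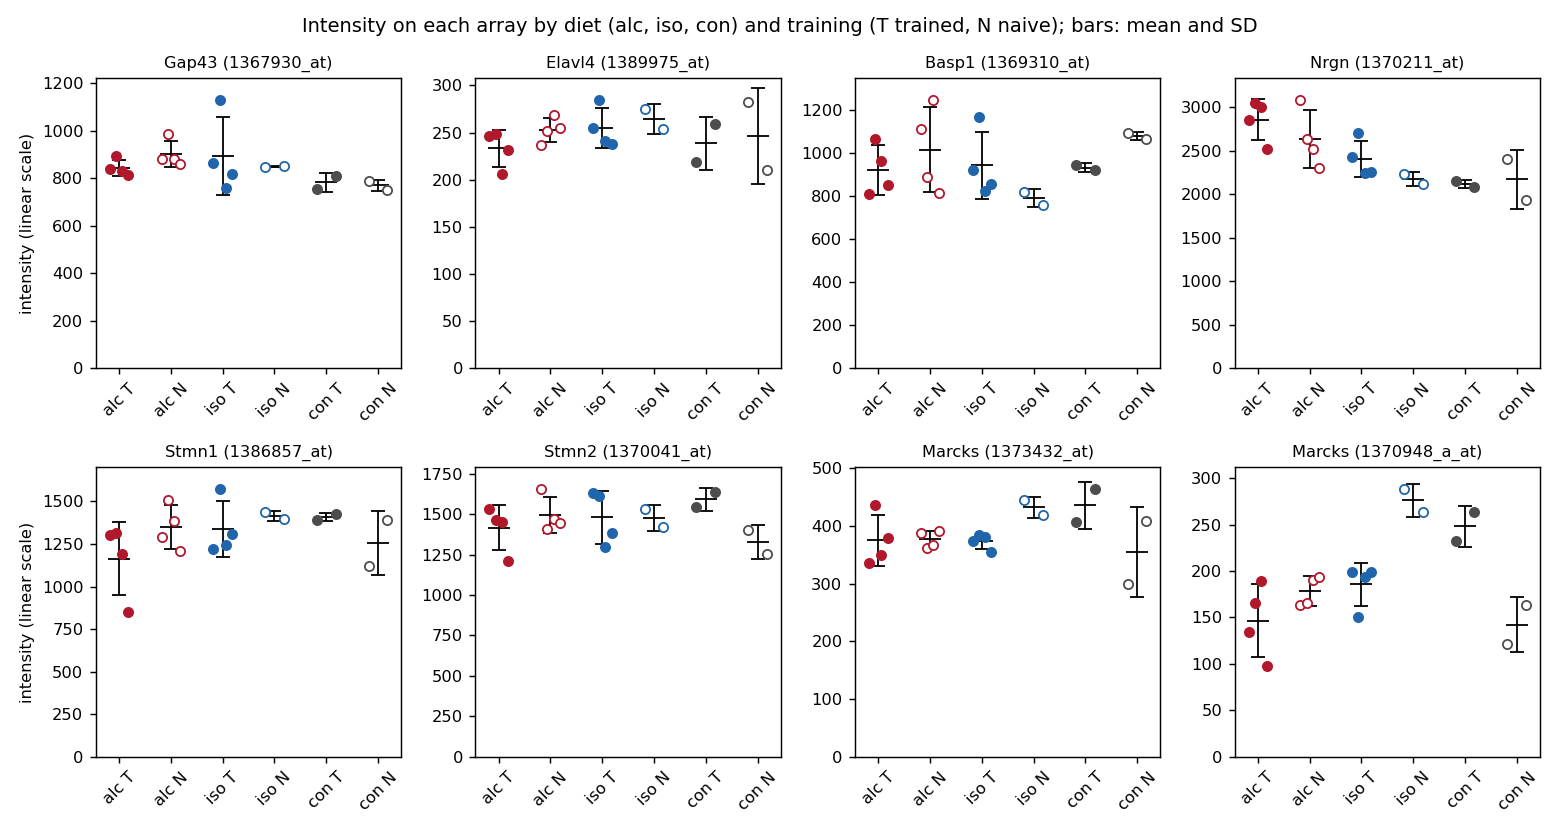
Intensity on each array (linear scale, vertical axis from 0) of 1 probe set per gene, and of a second for Marcks, in the 6 groups of diet (alc alcohol, iso isocaloric, con control) and training (T trained, N naive). Points are arrays, filled for trained and open for naive, and bars are the mean and SD. The Nrgn panel has its highest arrays under alcohol, and the last Marcks panel has its highest arrays in isocaloric naive and control trained.

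The 12 probe sets that passed a filter on mean level were tested. The other 3 lay close to the floor of the array on all 18 arrays. Intensities of Gap43 1371287_at ran from 0.075 to 5.4, those of Basp1 1375143_at from 4.8 to 32.6, and those of Marcks 1389838_at from 0.9 to 2.6. Each of these genes was therefore read from its other probe sets. Values below are intensities in linear units, and differences are on the scale log2(intensity + 6.06), which understates changes of dim probe sets. A diet difference is the mean of the differences among trained and among naive arrays. A probe set was called when its limma p, adjusted by Benjamini-Hochberg over all 9520 probe sets tested, was under 0.05.

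Nrgn had the clearest difference of diet among the members. In alcohol trained hippocampus its intensity was 2857, 3048, 3002 and 2522, and in alcohol naive hippocampus 3084, 2635, 2517 and 2298. The isocaloric arrays gave 2422, 2698, 2248 and 2249.6 after training and 2228 and 2116 in naive animals. The control arrays gave 2148 and 2084 after training and 2409 and 1929.9 in naive animals. Of the 8 alcohol arrays, 7 lay above all 4 control arrays, and the lowest alcohol array fell below the highest control array.

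Mean Nrgn intensity was 2745 ± 293 (SD, n = 8) under alcohol, 2327 ± 207 (n = 6) under the isocaloric diet and 2143 ± 199.8 (n = 4) under the control diet. Alcohol exceeded control by 0.35 on the log2 scale (SE 0.08, limma adjusted p = 0.00767), with 8 of 8 alcohol arrays above the control mean. It was the only member of 12 called in that comparison, in which 19.9% of all probe sets were called. Without control naive replicate 2, the array with the lowest Nrgn, the difference was 0.27 and its limma adjusted p was 0.0728. Without the 4 arrays high in Ttr the difference was 0.39 (limma adjusted p = 0.0432).

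Against the isocaloric diet, Nrgn was 0.26 higher under alcohol (SE 0.08, limma adjusted p = 0.0655), with 7 of 8 alcohol arrays above the isocaloric mean, and was not called. The value moved with scaling: it was 0.33 and passed with each array centred on its median (limma adjusted p = 0.0253), and was 0.12 with quantile normalization (limma adjusted p = 0.321). It passed in 9 of 30 alternatives. The isocaloric and control diets differed by 0.09 (95% interval -0.09 to 0.28), by 0.24 with quantile normalization (limma adjusted p = 0.0725) and by -0.02 with median centring, and was called in none of these. Trained minus naive differences of Nrgn were 0.12 under alcohol, 0.14 under the isocaloric diet and -0.03 under the control diet, none called.

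Hpca, which encodes the neuronal calcium sensor hippocalcin, was higher by 0.56 in alcohol than in control hippocampus (limma adjusted p = 0.00428) and by 0.53 than in isocaloric hippocampus (adjusted p = 0.0175 by the same fit). Over the hippocampal principal neuron markers as a list, 1 of 5 tested was higher and 1 was lower in alcohol than in control. The lower one was Camk2a at -1.82, while another probe set of Camk2a was called higher by 0.95. Summed intensity of these markers ran from 3589 to 5042 under alcohol, 3217 to 4371 under the isocaloric diet and 3826 to 4715 under the control diet. Endothelial markers moved too: 3 of 3 tested were higher under alcohol than under control, with sums of 431 to 515 against 194 to 222. The same 3 were higher under the isocaloric diet than under control, with sums of 435 to 502. Between the alcohol and isocaloric diets 0 were called, and another marker, Pecam1, lay under the filter. Of 5 astrocyte markers, 1 was lower under alcohol than under control, with sums of 6521 to 8895 against 7561 to 9556, and 1 was higher than under the isocaloric diet, with sums of 6597 to 8108. The 3' to 5' signal ratios of control transcripts, a measure of RNA integrity and labelling, also differed between alcohol and control arrays: on the log2 scale hexokinase gave 0.99 ± 0.22 (SD, n = 8) against 1.49 ± 0.18 (n = 4) and actin 0.40 ± 0.16 against 0.64 ± 0.09, while Gapdh gave 0.26 in both. The part of these markers, and of the hexokinase and actin ratios, in the Nrgn difference was not tested. With the Gapdh ratio as a covariate the Nrgn difference was 0.35 (limma adjusted p = 0.00863). That ratio was alike under alcohol and control, so this fit could not show a part of RNA quality.

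**Figure D2:**
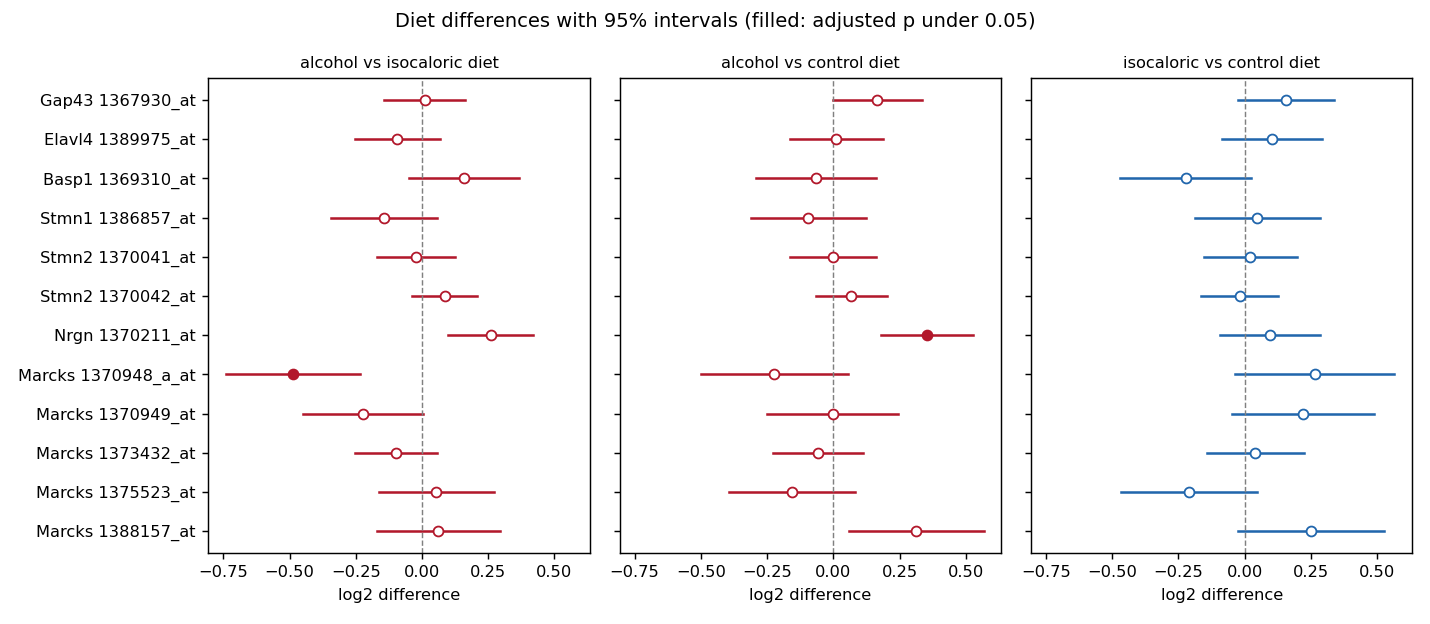
Log2 difference (horizontal axis) of the 12 tested probe sets in 3 comparisons of diet, with 95% intervals from the limma fit. Points are filled where the adjusted p was under 0.05: Marcks 1370948_a_at at -0.49 in alcohol against isocaloric and Nrgn at 0.35 in alcohol against control.

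Marcks was represented by 5 measurable probe sets, and they did not behave alike. Probe set 1370948_a_at read 134, 165, 189 and 98.1 in alcohol trained and 163, 165, 190.4 and 193 in alcohol naive hippocampus. It read 199, 151, 194 and 199 in isocaloric trained and 289 and 263 in isocaloric naive hippocampus. In control hippocampus it read 232 and 264 after training and 121 and 163 in naive animals. The highest 4 arrays were thus the isocaloric naive and control trained arrays, and the alcohol arrays overlapped the isocaloric trained ones.

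Averaged over training, this probe set was 0.49 lower under alcohol than under the isocaloric diet, a log2 difference of -0.49 (SE 0.12, limma adjusted p = 0.0369). All 8 alcohol arrays lay below the isocaloric mean, 162 ± 32.5 (SD, n = 8) against 216 ± 50.7 (n = 6). It was 1 of 12 member probe sets called, beside 3.06% of all probe sets. The difference was -0.36 among trained and -0.62 among naive arrays, and neither passed alone (the trained value was 0.04 with the Gapdh ratio described next as a covariate), in comparisons that called 0.399% and 0.0735% of all probe sets. Against the control diet, whose arrays ran from 121 to 264, the alcohol difference was -0.22 (limma adjusted p = 0.251).

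This call was not firm. It was lost on leaving out any of 9 arrays, namely alcohol trained replicate 1, alcohol naive replicates 1, 2 and 3, isocaloric trained replicates 1, 3 and 4, and either isocaloric naive replicate, with limma adjusted p from 0.0549 to 0.182. The 3' to 5' ratio of the Gapdh control was 0.26 ± 0.12 on the log2 scale (SD, n = 8) under alcohol and 0.13 ± 0.04 (n = 6) under the isocaloric diet. It was highest, at 0.48, on alcohol trained replicate 4, where this Marcks probe set was lowest. The ratios of actin, 0.40 and 0.41, and of hexokinase, 0.99 and 1.09, were closer between the alcohol and isocaloric diets. With the Gapdh ratio as a covariate the Marcks difference was -0.22 (limma adjusted p = 0.334). Without the 4 arrays high in Ttr it was -0.37 (limma adjusted p = 0.126).

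The other Marcks probe sets gave smaller differences between the alcohol and isocaloric diets. They were -0.22 for 1370949_at (95% interval -0.45 to 0.00416), -0.10 for 1373432_at, 0.05 for 1375523_at and 0.06 for 1388157_at, and none was called. Probe sets 1370948_a_at, 1370949_at and 1388157_at, 3 in all, are annotated through the same sequence accession. Across the 18 arrays, 1370948_a_at correlated with 1370949_at at r = 0.72 and with 1373432_at at r = 0.62, and the latter pair with each other at r = 0.80. The correlations of 1375523_at and 1388157_at with the rest and with each other ran from -0.12 to 0.28. The first 3 named therefore varied together from array to array more closely than the remaining ones.

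Marcks 1388157_at was the member nearest to a call against control after Nrgn. Its intensity was 64.8 at the lowest, 86.2 at the median and 93.7 at the highest under alcohol, and it read 73.5, 66.0, 60.1 and 59.4 on the control arrays. The difference of 0.31 (SE 0.12) had a limma adjusted p of 0.0767. Every alcohol array lay above the control mean, but the ranges overlapped.

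In trained and naive animals the Marcks probe sets went in different directions according to diet. For 1370948_a_at, trained minus naive was -0.31 under alcohol (SE 0.15), -0.56 under the isocaloric diet (SE 0.19) and 0.79 under the control diet (SE 0.22). The limma adjusted p-values were 0.599, 0.580 and 0.200, so none was called, in comparisons that called 0%, 0% and 0.0315% of all probe sets. Trained and naive arrays did not overlap under the isocaloric and control diets, where 22.9% and 35.3% of all probe sets likewise did not overlap between such small groups. Probe sets 1370949_at and 1373432_at had the same signs, at -0.33, -0.32 and 0.43, and at -0.01, -0.21 and 0.31.

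The difference between diets in the effect of training was tested directly. For 1370948_a_at the training effect was 1.10 lower under alcohol than under control, a log2 difference of -1.10 (SE 0.27, limma adjusted p = 0.116). A further comparison, added after the Marcks values were seen, put the isocaloric effect 1.36 below that of control, at -1.36 (SE 0.29, limma adjusted p = 0.0614). Neither passed the threshold, which 0.0315% and 0.179% of all probe sets passed. The alcohol and isocaloric training effects of this probe set differed by 0.26, in a comparison that called 0% of all probe sets. The control arrays differed by processing note, and the trained minus naive difference was 1.09 between the noted arrays and 0.50 between the others. For 1373432_at the same differences were 0.62 and -0.01. Each of these values is a single trained array minus a single naive array, so it has no measure of spread.

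**Figure D3:**
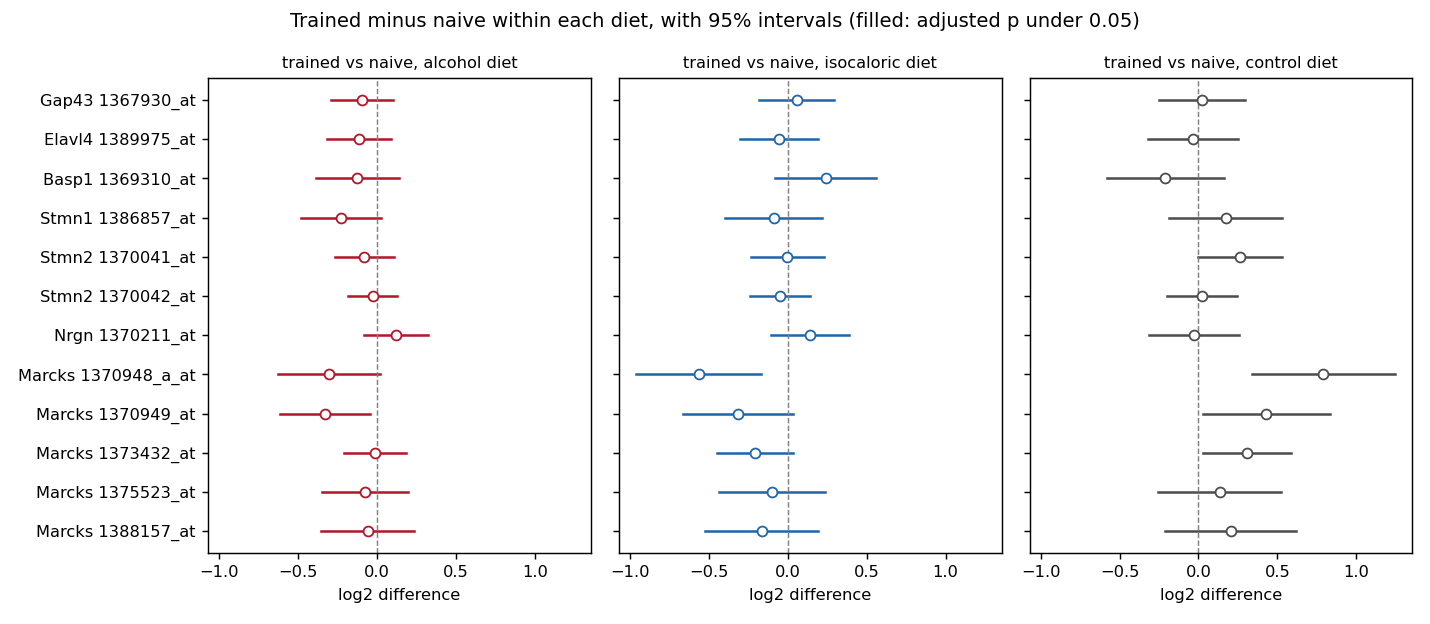
Trained minus naive log2 difference (horizontal axis) of the 12 tested probe sets within each diet, with 95% intervals from the limma fit. All points are open, since none had an adjusted p under 0.05. Marcks 1370948_a_at lies at -0.31, -0.56 and 0.79 in the alcohol, isocaloric and control diets.

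Gap43 passed no test. Probe set 1367930_at read 839, 894, 831 and 815 in alcohol trained and 882, 987, 879.8 and 862 in alcohol naive hippocampus. It read 863, 1131, 760.5 and 819.8 in isocaloric trained and 848 and 851 in isocaloric naive hippocampus. The control arrays gave 756 and 811 after training and 788 and 753 in naive animals. All 8 alcohol arrays lay above all 4 control arrays, a separation that 6.38% of all probe sets showed in either direction, while the isocaloric arrays, from 760.5 to 1131, overlapped both.

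Mean Gap43 intensity was 874 ± 53.4 (SD, n = 8) under alcohol, 879 ± 129 (n = 6) under the isocaloric diet and 777 ± 27.7 (n = 4) under the control diet. Alcohol exceeded control by 0.17 (SE 0.08, limma adjusted p = 0.152), which was not called. Without isocaloric trained replicate 2, the array with the highest Gap43, the limma adjusted p of that difference was 0.0483. Alcohol and isocaloric diets differed by 0.01, with a 95% interval from -0.14 to 0.16, so a change of Gap43 by more than 0.16 in either direction lay outside the interval. Ordered by mean level, the groups ran from alcohol naive through isocaloric trained, isocaloric naive and alcohol trained to control trained and control naive. Neighbours in that order overlapped, except that the alcohol trained arrays lay above the control trained ones.

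Elavl4 was measured by 1 probe set, 1389975_at. It read 246, 249, 206 and 232 in alcohol trained and 237, 252, 268 and 255 in alcohol naive hippocampus. It read 255, 285, 241 and 238 in isocaloric trained and 275 and 253 in isocaloric naive hippocampus. The control arrays gave 218 and 259 after training and 283 and 210.0 in naive animals, so the naive control pair alone spanned nearly the whole range of the series. In the order of group means, from isocaloric naive at the top to alcohol trained at the bottom, every group overlapped its neighbour.

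Mean Elavl4 intensity was 243 ± 18.6 (SD, n = 8) under alcohol, 258 ± 18.5 (n = 6) under the isocaloric diet and 242 ± 34.2 (n = 4) under the control diet. The alcohol minus isocaloric difference was -0.09 (95% interval -0.25 to 0.07) and the alcohol minus control difference 0.01 (95% interval -0.17 to 0.19). Trained minus naive differences were -0.12, -0.06 and -0.04 under the alcohol, isocaloric and control diets. In the alcohol diet all 4 trained arrays lay below the naive mean, but the ranges overlapped and the limma adjusted p was 0.771.

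HuD is known to stabilise the Gap43 message, so the levels of both transcripts were set against each other on the 18 arrays. Pearson's r was 0.51 (permutation p = 0.0298) and Spearman's rho 0.42 (permutation p = 0.0832). Elavl4 was compared with 6 members, 1 probe set each, and after Benjamini-Hochberg adjustment over these 6 relations the p-values were 0.179 and 0.390. The correlation with Gap43 was 0.48 without the 2 arrays farthest from the median of Elavl4. It was 0.55 over the 14 alcohol and isocaloric arrays, and 0.52 for deviations from the group means. All of these kept isocaloric trained replicate 2, the array highest in both genes. How far the correlation rests on that array was not tested. With Basp1, Marcks, Stmn1, Stmn2 and Nrgn, r ran from -0.04 to 0.36 and none passed. Over the 14 arrays r with Elavl4 was 0.59 for Stmn1, 0.43 for Marcks, 0.38 for Stmn2, 0.20 for Basp1 and -0.35 for Nrgn. No relation of a member to Elavl4 thus passed the correction.

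**Figure D4:**
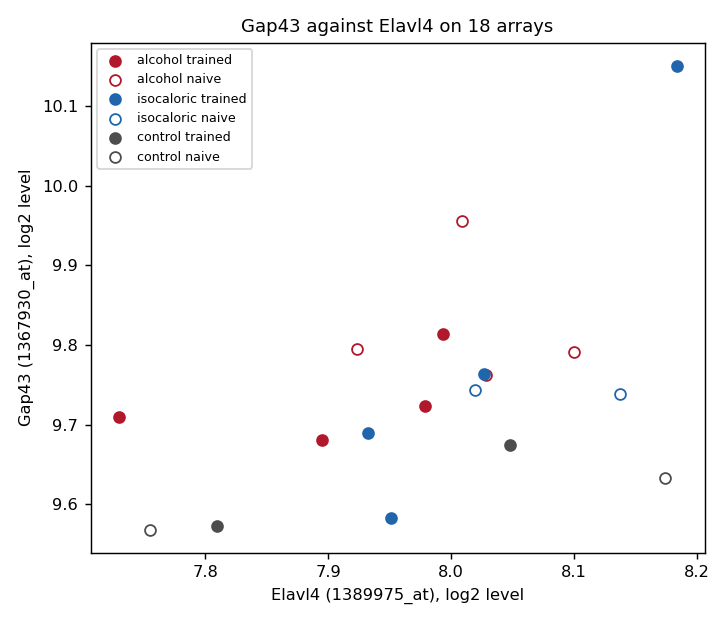
Gap43 level (vertical axis) against Elavl4 level (horizontal axis), both as log2(intensity + 6.06), on 18 arrays, coloured by diet and filled for trained animals. Pearson's r is 0.51; the array highest in both is isocaloric trained replicate 2.

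Basp1, also called CAP-23, was variable within groups. Probe set 1369310_at read 811, 1069, 966 and 854 in alcohol trained and 1112, 891, 1249 and 817 in alcohol naive hippocampus. It read 922, 1171, 825 and 858 in isocaloric trained and 821 and 762 in isocaloric naive hippocampus. The control arrays gave 948 and 920.4 after training and 1093 and 1068 in naive animals. Within the alcohol naive group alone the highest and lowest arrays covered most of the range of the series.

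Mean Basp1 intensity was 971 ± 159 (SD, n = 8) under alcohol, 893 ± 146 (n = 6) under the isocaloric diet and 1008 ± 86.1 (n = 4) under the control diet. The alcohol minus isocaloric difference was 0.16 (95% interval -0.05 to 0.37), the alcohol minus control difference -0.06 and the isocaloric minus control difference -0.22 (95% interval -0.47 to 0.02). None was called. Trained arrays lay above naive ones in the isocaloric diet and below them in the control diet, with differences of 0.24 and -0.21 that did not pass.

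No stathmin probe set passed a test between diets. Stmn1 1386857_at read 1302, 1312, 1191 and 853 in alcohol trained, 1292, 1511, 1387 and 1209 in alcohol naive, and 1222, 1576, 1245 and 1308 in isocaloric trained hippocampus. It read 1437 and 1396 in isocaloric naive, 1392 and 1427 in control trained and 1123 and 1391 in control naive hippocampus. The lowest array was alcohol trained replicate 4. The alcohol minus isocaloric difference was -0.14 (95% interval -0.34 to 0.06) and the alcohol minus control difference -0.09. Under alcohol the trained arrays were 0.23 below the naive ones, a log2 difference of -0.23 (SE 0.12, limma adjusted p = 0.617). It was -0.09 without alcohol trained replicate 4 and -0.03 without the 4 arrays high in Ttr.

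Stmn2 was read by probe set 1370041_at, between 1212 and 1658 on all arrays, and by 1370042_at, between 838 and 1052. Their correlation across arrays was 0.26, so they did not rank the arrays alike. The alcohol minus isocaloric differences were -0.02 and 0.09 and the alcohol minus control differences -0.00057 and 0.07, none called. In the control diet the trained arrays of 1370041_at, 1542 and 1639, lay above the naive ones, 1399.5 and 1254. That difference of 0.26 (SE 0.13) had a limma adjusted p of 0.464.

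In the isocaloric against control comparison none of the 12 probe sets was called by limma, and none had an unadjusted p under 0.05, against 7.05% and 25.1% of all probe sets. Averaged over the 3 diets, trained and naive arrays differed by -0.07 to 0.08 over the 12 probe sets. Again 0 were called by limma and 0 had an unadjusted p under 0.05, where 0.0105% and 5.95% of all probe sets did. The median difference of the members was -0.01 in alcohol against isocaloric, -0.0012 in alcohol against control and 0.07 in isocaloric against control. Over all probe sets tested it was -0.02, -0.0008 and 0.02.

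Other genes of the growth cone and axon cytoskeleton were compared between diets in the same fit. Of 30 tested, 0 were called by limma between alcohol and isocaloric diets. Between alcohol and control, 5 were higher and 0 lower, with a list median of 0.16, where 11.3% of all probe sets were higher and 8.61% lower. They included Rtn4r, the Nogo receptor, at 0.52 (its other probe sets at -0.12 and 0.18), Gnao1, the G protein subunit abundant in growth cones, at 0.38, Gprin1, a partner of that subunit, at 0.25, and Dpysl5, a collapsin response mediator, at 0.59. Without the 4 arrays high in Ttr the list median was 0.13. The values were then 0.56 for Rtn4r, 0.35 for Gnao1, 0.61 for Dpysl5 and 0.15 for Gprin1. Without the 2 noted control arrays the list median was 0.16. Each of these fits left a single control trained array, so only sizes are given. With each array centred on its median 3 were higher and 0 lower. Between isocaloric and control diets Gnao1 was higher by 0.51 and Dbn1, the actin-binding protein drebrin, by 0.37, from the same 4 control arrays.

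Against control, 19.9% of all probe sets were called under alcohol and 7.05% under the isocaloric diet. Of 9 genes of protein kinase C, calmodulin and IQ-motif proteins, each read by its probe set of highest mean, Prkca was the 1 called. It encodes a kinase that phosphorylates GAP-43, MARCKS and neurogranin, and was 0.41 higher under alcohol (limma adjusted p = 0.00384) and 0.37 higher under the isocaloric diet (limma adjusted p = 0.0250) than under the shared control arrays. The isocaloric value no longer passed at 0.30 with quantile normalization (limma adjusted p = 0.0574) and at 0.26 with median centring (limma adjusted p = 0.0617). Without the noted arrays the alcohol and isocaloric values of Prkca were 0.36 and 0.32. Of Prkcb, which encodes another such kinase, the probe set used for the list differed by 0.02 between alcohol and control, while its other probe set was higher by 0.45 (limma adjusted p = 0.00190), and by 0.31 under the isocaloric diet (limma adjusted p = 0.0467). Pcp4, a small IQ-motif protein that binds calmodulin as neurogranin does, differed by 0.24 between alcohol and isocaloric diets (limma adjusted p = 0.114). Calm2, which encodes calmodulin itself, differed by 0.11 in that comparison and was not called.

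Of the nearest relatives of the members, Marcksl1, Stmn3, Stmn4 and Elavl1 passed no test between diets. Elavl2 and Elavl3, relatives of Elavl4, had no tested probe set. Marcksl1, the close relative of Marcks, was -0.20 under alcohol against the isocaloric diet (limma adjusted p = 0.175) and -0.22 against control (adjusted p = 0.101 by the same fit). Stmn3 and Stmn4 differed by 0.02 and -0.06 between alcohol and isocaloric diets. Elavl1, which encodes HuR, the widely expressed relative of HuD, differed by -0.03.

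A further list held RNA-binding proteins, among them relatives of HuD and regulators of AU-rich messages, and 8 were tested. Of these, Ptbp2, a neuronal splicing repressor, was the 1 called between alcohol and isocaloric diets, where 3.06% of all probe sets were called. It was lower under alcohol, a log2 difference of -0.43 (limma adjusted p = 0.0403). It was -0.42 (limma adjusted p = 0.126) without the 4 arrays high in Ttr and -0.35 (limma adjusted p = 0.0570) with median centring. Against control, Tial1 was higher by 0.35 and Celf2 by 0.38 under alcohol, where 19.9% of all probe sets were called. Celf2 was also higher by 0.41 under the isocaloric diet, where 7.05% were called. Its other probe sets differed by 0.0076 and 0.66 under alcohol, and by 0.33 and 0.77 under the isocaloric diet. Without the 2 noted control arrays Tial1 was at 0.51 under alcohol. Celf2 was then at 0.60 under alcohol and 0.63 under the isocaloric diet. Without the 4 arrays Tial1 was at 0.35 and Celf2 at 0.38 and 0.39 in these comparisons, and no call of this list remained.

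Of 7 further messages reported as HuD targets, 0 were called by limma between alcohol and isocaloric diets. Against control, 2 were higher and 1 lower under alcohol, where 11.3% of all probe sets were higher and 8.61% lower. Under the isocaloric diet 1 was higher and 1 lower, where 7.05% of all probe sets were called. Kcna1, a potassium channel, was higher than under control by 0.83 under alcohol and by 0.58 under the isocaloric diet (limma adjusted p = 0.0188 for the latter). Between the alcohol and isocaloric diets it differed by 0.24. Mapt, which encodes tau, was higher by 0.26 under alcohol than under control (limma adjusted p = 0.0471), and by 0.22 with median centring (limma adjusted p = 0.106). Other Mapt probe sets differed by -0.56 (limma adjusted p = 0.00513) and 0.20, so the gene had no single direction. Camk2a, a calcium and calmodulin dependent kinase, gave -1.82 on 1 probe set and 0.95 on another between alcohol and control. Between isocaloric and control diets it gave -1.62 and 0.96. All of these Camk2a differences were called. Over the 4 lists together, Ptbp2 was the 1 gene called between the alcohol and isocaloric diets, and 0 were called by limma for training averaged over diets.

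For each member, the 3 genes whose level most nearly followed it over the 18 arrays were listed as a description. Arrays of a group share diet and training, and all values of an array share its scaling. Nrgn was followed by Hsp90ab1 at r = 0.90, Zmynd8 at r = 0.90 and Ap2m1 at r = 0.88. Elavl4 was followed by Appbp2 at r = 0.92, Dclk1 at r = 0.80 and Socs7 at r = 0.77. Gap43 was followed by Arfgap1 at r = 0.83, Fam210a at r = 0.79 and Kcnc2 at r = 0.78. Over the 14 alcohol and isocaloric arrays those of Elavl4 were 0.91, 0.80 and 0.76, so they did not rest on the control arrays.

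Stmn1 was followed by Septin7 at r = 0.87, Ly6l at r = 0.85 and Bmpr1a at r = 0.84. Stmn2 was followed by Grin2a at r = 0.87, Syngr3 at r = 0.84 and Ahsa1 at r = 0.80. Basp1 was followed by Tbc1d22al at r = 0.80, Fam107a at r = 0.78 and Mdh2 at r = 0.77. Marcks, by its probe set of highest mean, was followed by Klhl7 at r = 0.79, G3bp2 at r = 0.77 and Fyttd1 at r = 0.76. No member was among the 3 nearest genes of another.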

How the data were processed

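Per the labels, hippocampal total RNA of 18 rat samples was hybridised to 1 Affymetrix array each. The values the authors deposited are linear intensities, 1 for each probe set on each array. The submitters' processing notes name MAS5 for 2 control-diet samples, and the algorithm used for the remainder was not given there. Groups were taken from each sample's description, in which the isocaloric diet is misspelt once.

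Of 15923 probe sets, 57 controls were dropped. Gene symbols came from GEO's platform annotation (12789 probe sets with 1 symbol, 312 with several, 2822 with none), and all 15 member probe sets matched a RefSeq gene table by gene ID. A constant of 6.06, the 10th percentile over the whole table, was added to intensities before log2 was taken, and probe sets under the 40th percentile of mean level were left out, which left 9520. limma 3.58.1 in R 4.3.3 (lmFit on 6 group means, contrasts, eBayes with a trend) was two-sided at an adjusted p of 0.05. The fit was tested on simulated data. Correlations used 100000 permutations.

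All probe sets of the 7 members were named. In each gene list, read from the probe set of highest mean for a gene, up to 4 called genes of lowest p were named, or the lowest 2 where none was called. Pcp4 and other relatives, Hpca and Prkcb were named as well. The members and lists were chosen with earlier results of these data known.

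Replicate numbers were checked for pairing: of 36 pairs of same-numbered samples from different groups, 4 had deviations correlated above 0.1, so the numbers were not treated as pairs. Alternatives covered the constant, filter, scaling, samples in the fit, replicate block, array weights, RNA quality, the 2 noted arrays and each array left out. Leaving out the 4 arrays high in Ttr, and the isocaloric minus control training effect, were added after the data were seen.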

Additional observations from a re-analysis of the deposited data

Results flagged for a closer look

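Of 36 groups of 4 arrays examined, 1 for each tested probe set and group, 4 held an array that stood apart from the other 3 by Dixon's gap test at the 95% level. Chance flags about 1 in 20 such groups.

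Gap43 reached 987 on alcohol naive replicate 2, where the other alcohol naive arrays read 862 to 882. Marcks 1370948_a_at fell to 151 on isocaloric trained replicate 2, against 194 to 199 on the others of that group. Marcks 1370949_at reached 144 on alcohol trained replicate 2, against 96.5 to 99.2. Stmn2 1370042_at read 877 on the same array, against 1017 to 1028.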

How the results depend on the processing

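Over the alternatives, 0 called member differences changed sign. Between alcohol and isocaloric diets 1 member probe set was called, and the count was 0 with no filter on low values, with the Gapdh ratio as a covariate and without the 4 arrays high in Ttr. It was 2 with only the compared groups, with array weights, without the 2 noted arrays and with the replicate block. Leaving out each array gave 0 to 2. The Marcks 1370948_a_at difference stayed between -0.55 and -0.22 and was called in 17 of 30 alternatives. With each array centred on its median it was -0.41 (limma adjusted p = 0.0556) and Nrgn took its place among the calls.

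Between alcohol and control diets 1 was called, 2 with the replicate block, which also called Gap43, and 0 to 3 on leaving out each array. Nrgn was called in 29 of 30 alternatives, from 0.27 to 0.44. Alcohol against isocaloric in naive animals called 0, and 1 with array weights. The training effect under alcohol minus control called 0, and 0 to 1 on leaving out each array. Isocaloric minus control called 0, but 1 with a constant of 32, 1 with the Gapdh covariate and 0 to 2 on leaving out each array. In other results the replicate block changed no member's call. Same-numbered samples had deviations correlated from -0.23 to 0.13.

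Centring on the median moved the split of calls over all probe sets. In alcohol against isocaloric the share higher was 48.1% and became 88.4%, in alcohol against control 56.7% and 46.4%, and in isocaloric against control 60.2% and 19.1%. Groups of 2 arrays limit the statements on training under the isocaloric and control diets.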
